A study of Mus musculus with 7 samples.

Results

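Cells protect exposed single-stranded DNA with proteins that bind it through a fold shared by the whole family, and the genes for 8 of these proteins and their partners were followed here in megakaryocyte-erythroid progenitors lacking 2 of them. Nabp2 (also called Ssb1 or Obfc2b) and Nabp1 (Ssb2 or Obfc2a) each form a SOSS complex together with Ints3 and the small subunit Inip, and this complex helps to sense and mend broken DNA. Rpa1, Rpa2 and Rpa3 form replication protein A, the abundant trimer that coats single strands at replication forks and during repair and calls in the ATR checkpoint kinase. Ssbp1 is the mitochondrial member, which covers single strands as mitochondrial DNA is copied. The 8 genes were chosen by name, and all array probes annotated to them were taken, 14 of the 25697 probes in the table.

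The samples were megakaryocyte-erythroid progenitors, bone marrow cells that give rise to platelets and red cells, from female C57BL/6 mice. Double knockout mice lacked Ssb1 and Ssb2 and gave 3 arrays, and wild-type control mice gave 4. The cells had been sorted as low for lineage markers, CD34 and the Fc gamma receptors, positive for c-Kit and negative for Sca-1. The labels name neither the promoter nor the enzyme used for deletion, nor the exons removed, the age of the mice, or whether animals were pooled. Nothing in them says that arrays of a group come from separate mice, so p-values measure the spread between these arrays, which may be technical.

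RNA was hybridised in 1 colour to Illumina MouseRef-8 v2.0 BeadArrays. Values given as log2 signals were background-corrected and quantile-normalized, so a change is relative to the other probes. A probe counted as detected on an array at a detection p under 0.05, and probes detected on at least 3 arrays were tested. Mean raw signal was 651 to 670 on knockout arrays and 443 to 615 on control arrays, and 41.2% to 43.4% against 36.6% to 40.3% of probes were detected. All 8 progenitor markers examined, such as Gata1, Klf1 and Zfpm1, were detected on all arrays, and 2 of them were higher in the knockout, Gata2 by 1.605 (adjusted p = 0.00101 in limma) and Itga2b by 1.99 (adjusted p = 0.00160) on the log2 scale. Gata1 at -0.48 (adjusted p = 0.0573) and Klf1 at -0.32 (adjusted p = 0.0613) did not pass the test. Fcgr2b, an Fc gamma receptor, was detected on 3 of 3 knockout and 0 of 4 control arrays. It entered the test only through the knockout arrays, so its p-value is left out. Other markers that the sort selected against did not share this. Cd34 was at -0.37 (adjusted p = 0.143 in limma), detected on 2 of 3 knockout and 3 of 4 control arrays. Fcgr3, another Fc gamma receptor, was detected on no array. The mast cell protease Cpa3 was at 0.94 (adjusted p = 0.0422 in limma), but its groups overlapped. Of the other mast cell and basophil markers, Fcer1a was at -0.18 (adjusted p = 0.588), and Mcpt8 and Ms4a2 were detected on no array. These genes were picked after their values were seen. All 5 tested markers of the B lineage were lower in the knockout, with summed normalized signals of 186 to 294 on knockout arrays and 839 to 1823 on control arrays. Cd79a was detected on 0 of 3 knockout and 4 of 4 control arrays, and Vpreb3 and Ebf1 on 1 of 3 and 4 of 4. These entered the test only through the control arrays, so neither their count nor the sums, which include them, are support. Pax5, of the same lineage, was detected on no array. Cd79b and Vpreb1, detected on all arrays, were at -2.12 (adjusted p = 0.00193 in limma) and -2.78 (adjusted p = 0.00160). The 7 tested neutrophil and monocyte markers gave sums of 1751 to 3464 on knockout arrays and 891 to 1827 on control arrays, with 3 higher and 1 lower. The part of these other cells in the results below was not tested. In sorted bulk cells, fewer cells of a type and less RNA per cell cannot be told apart.

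Of the 14 probes, 13 covering 7 genes were tested, and 11 were detected on all 7 arrays. At an adjusted p under 0.05 in limma, 5 of the 13 probes differed between double knockout and control, 4 of them lower and 1 higher. Of all 10723 probes tested, 26.3% differed (12.8% lower and 13.5% higher), so a large share of the array moved and a call for a member is to be read against that. The 5 were both Nabp2 probes, the brighter Rpa2 probe, the dimmer Ssbp1 probe and the middle Ints3 probe. Nabp2 is one of the deleted genes, so its calls are to be read apart from those of the other members. Without its 2 probes, the share of member probes called was close to that of all probes tested. For these 5 the groups did not overlap, which held for 37.6% of all tested probes. The median log2 change of the 13 probes was -0.21, against 0.00196 over all probes tested, and 12 of the 13 changes were negative, against 49.8% of all probes tested. The 12 include both probes of the deleted Nabp2, and most members have several probes. Rpa1, Ssbp1 probe 1 and Ints3 probe 3, each at -0.02, and Ints3 probe 1 at -0.09 were close to 0. With the replicate number as a block, 10 of the 13 were negative. Under median scaling over all probes 5 of the 13 were negative, but there the median of all tested probes was itself 0.50. Relative to that median, Ints3 probe 2 alone was positive (0.81), though Ints3 probe 1 (-0.0074) and Rpa2 probe 2 (-0.018) lay near 0. Probes of a gene are numbered here from the brightest. Each probe binds with its own strength, so the difference between 2 probes of an array is used only to set the groups against each other.

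**Figure D1:**
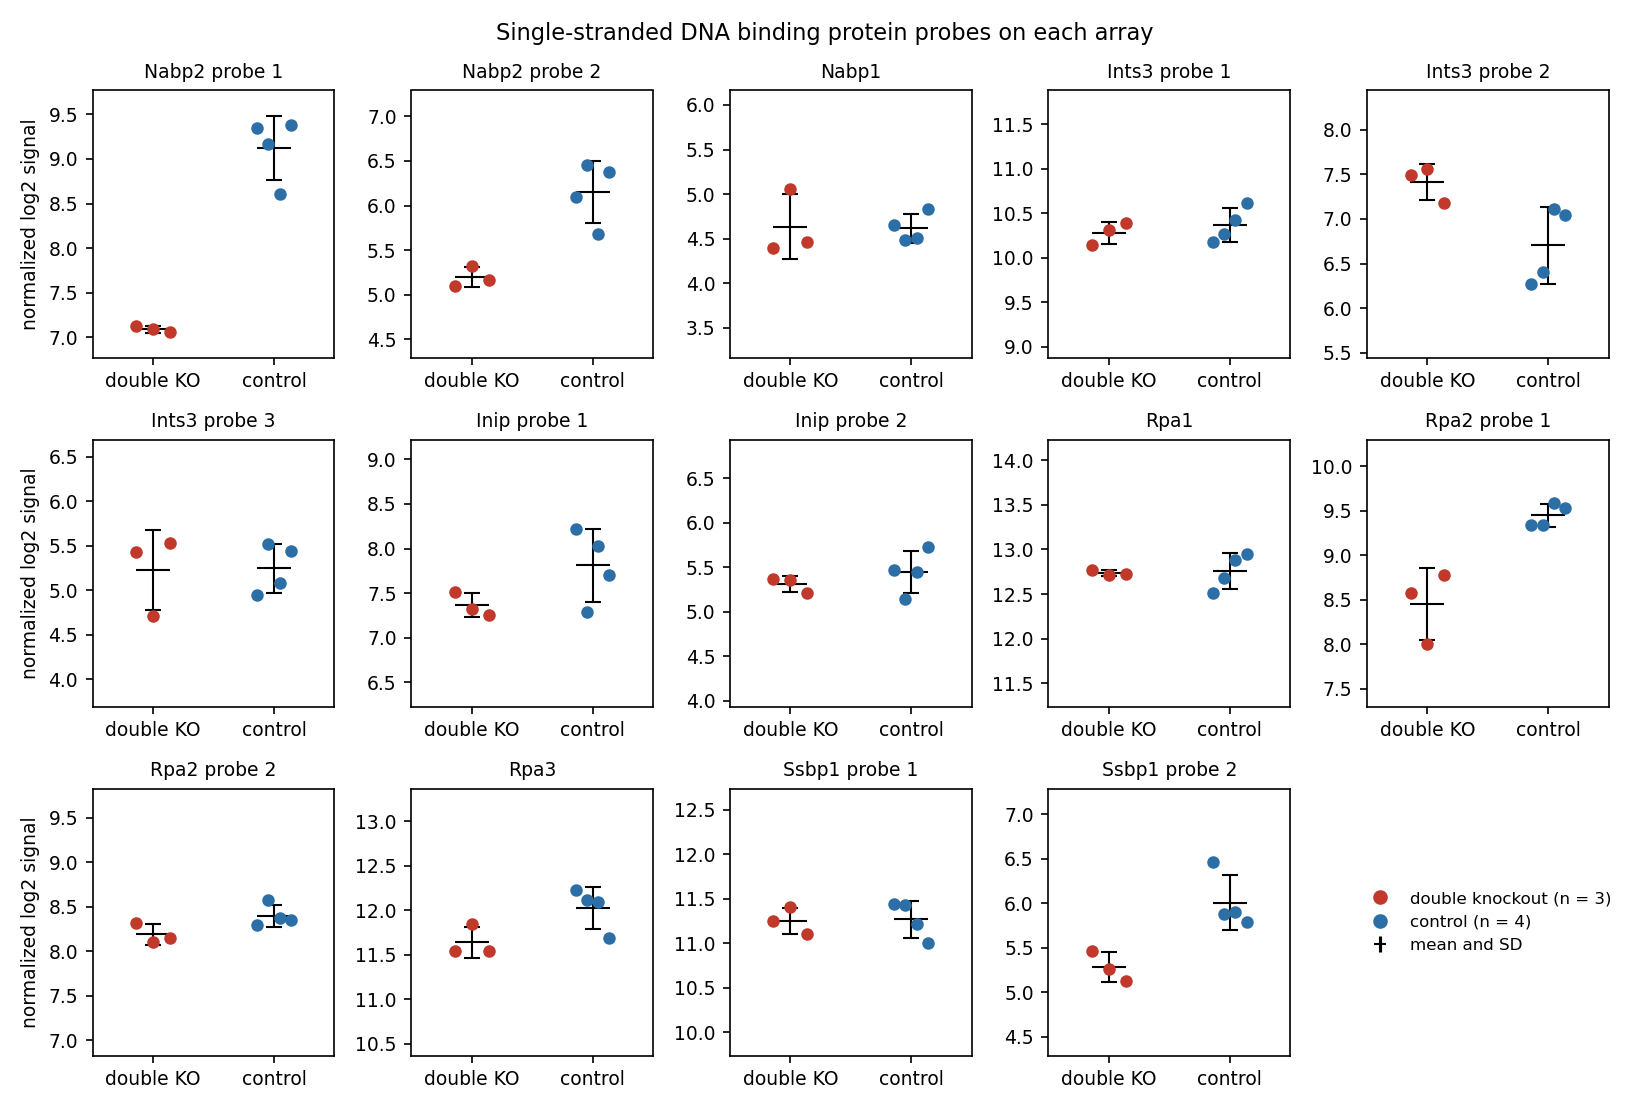
Normalized log2 signal of each of the 14 probes (vertical axis, a separate range per panel) on 3 double knockout arrays (red, left) and 4 control arrays (blue, right). Points are arrays, and bars give the mean and SD. Both Nabp2 probes, Rpa2 probe 1 and Ssbp1 probe 2 are lower on every knockout array than on any control array, and Ints3 probe 2 is higher.

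Nabp2, the first of the deleted genes, was lower on both of its probes. Probe 1 (ILMN_2837156) read 7.13, 7.09 and 7.05 on the knockout arrays, against 9.35, 9.17, 8.60 and 9.38 on the control arrays. The knockout arrays lay within a narrow band, and the controls spread more, with control 3 the lowest. The mean was 7.09 ± 0.0368 (SD, n = 3) in the knockout and 9.13 ± 0.360 (SD, n = 4) in controls, a log2 change of -2.04 (SE 0.189, adjusted p = 0.000274 in limma). Only 9 of the 10723 tested probes had a lower log2 change and 49 had a smaller p. Raw signals of this probe were 270 to 307 on knockout arrays and 346 to 853 on control arrays, so the groups were apart before any normalization. The probe stayed detected on all 3 knockout arrays, and the sources used here do not say where it lies relative to the deleted sequence. The log2 change was -1.32 in the authors' processed values, and -2.56 (adjusted p = 0.00577) in a fit that also held array brightness, where it was the only member called. All knockout arrays were brighter than all control arrays, so that fit can hardly tell brightness and genotype apart, and a call lost in it says little.

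Nabp2 probe 2 (ILMN_2593852) was much dimmer. It read 5.10, 5.32 and 5.17 on the knockout arrays, against 6.10, 6.45, 5.68 and 6.37 on the control arrays. The log2 change was -0.95 (SE 0.188, adjusted p = 0.00790 in limma). It was -0.31 without background correction (adjusted p = 0.0221) and -1.29 in the fit with array brightness, where the call was lost (adjusted p = 0.133). The knockout values were close to the lowest value of any detected probe, which lay between 4.96 and 5.07 on the knockout arrays, so there was little room for a larger fall. Its raw signals overlapped between the groups, at 154 to 157 on knockout arrays and 143 to 207 on control arrays. Within each array, probe 1 exceeded probe 2 by 1.89 ± 0.130 (SD, n = 3) in the knockout and by 2.97 ± 0.224 (SD, n = 4) in controls. The groups did not overlap in this difference, which had an exact two-sided permutation p of 0.0286, the smallest that 35 splits of 7 arrays allow. Adjusted over the 12 differences between probes computed here it was 0.0686, and none of the 12 passed 0.05 after adjustment.

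Nabp1, the other deleted gene and the close relative of Nabp2, could not be followed. Its single probe (ILMN_2996904) read 4.39, 5.05 and 4.46 on knockout arrays, against 4.66, 4.48, 4.50 and 4.83 on control arrays, and its detection p lay at 0.0526 or above on all 7. It was thus not above background in either group, was not tested, and checks neither the deletion nor the level of Nabp1.

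Ints3, the scaffold that holds the SOSS complex together and is also a subunit of Integrator, had 3 probes, of which 1 was called. Probe 1 (ILMN_2711570) read 10.15, 10.31 and 10.39 in the knockout and 10.18, 10.27, 10.42 and 10.61 in controls. The groups overlapped throughout, and the log2 change was -0.09 with a 95% interval from -0.41 to 0.23. Probe 2 (ILMN_2697279) read 7.50, 7.56 and 7.18 in the knockout and 6.27, 6.40, 7.11 and 7.04 in controls. All knockout arrays were above all controls, though knockout 3 and control 3 nearly met, and the log2 change was 0.71 (SE 0.227, adjusted p = 0.0462 in limma). That call rested on single arrays: it was lost without any of the knockout arrays and without control 1 or control 2, with adjusted p between 0.0288 and 0.132 over the 7 omissions, and it was 0.106 with no filter on dim probes. The change was 0.37 without background correction, 0.34 in the authors' processed values and 1.31 under median scaling over all probes. Probe 3 (ILMN_1229435) was detected on 2 of 3 knockout and 2 of 4 control arrays, and its log2 change was -0.02 with an interval from -0.52 to 0.49. Probe 1 exceeded probe 2 on the same array by 2.87 ± 0.297 (SD, n = 3) in the knockout and 3.66 ± 0.280 (SD, n = 4) in controls (exact permutation p = 0.0571, adjusted 0.0980).

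Inip, the small remaining subunit of SOSS, did not pass the test on either probe. Probe 1 (ILMN_1220589) read 7.52, 7.32 and 7.25 in the knockout, against 8.22, 7.28, 8.03 and 7.70 in controls. Control 2 lay among the knockout arrays, while the other 3 controls were above them. The log2 change was -0.45 with a 95% interval from -0.93 to 0.03 (adjusted p = 0.150 in limma), and without control 2 it was -0.62 (adjusted p = 0.0349). Probe 2 (ILMN_2983565) was dim, read 5.21 to 5.37 in the knockout and 5.15 to 5.73 in controls, and changed by -0.13 with an interval from -0.47 to 0.21. On each array Nabp2 probe 1 was set against the other SOSS genes, which removes any shift common to an array. Nabp2 minus Ints3 was -3.19 ± 0.159 (SD, n = 3) in the knockout and -1.24 ± 0.420 (SD, n = 4) in controls (exact permutation p = 0.0286, adjusted 0.0686). Nabp2 minus Inip was -0.27 ± 0.102 (SD, n = 3) in the knockout and 1.32 ± 0.588 (SD, n = 4) in controls (exact permutation p = 0.0571, adjusted 0.0980). Relative to either partner, Nabp2 was lower on each of the 3 knockout arrays than on any control array.

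**Figure D2:**
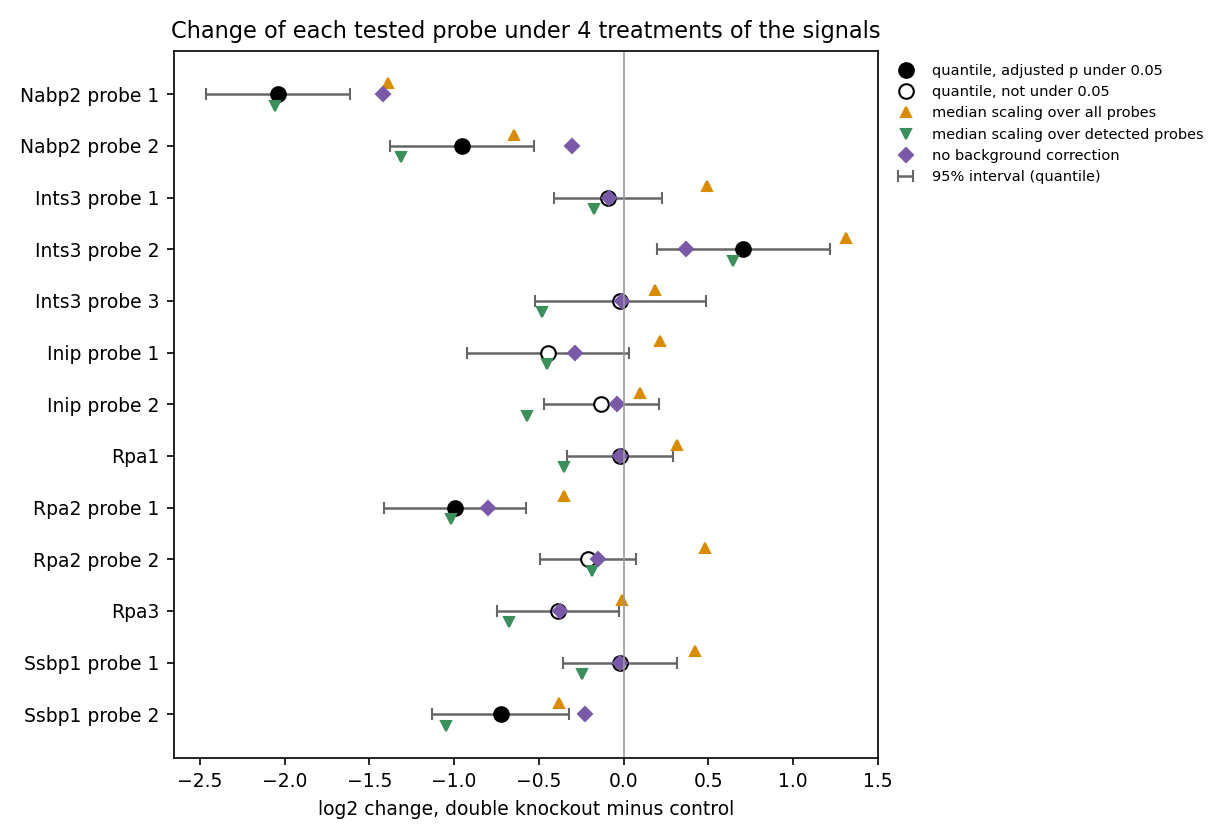
Log2 change (horizontal axis, double knockout minus control) of the 13 tested probes. Circles and 95% intervals come from the quantile-normalized signals, filled where the adjusted p is under 0.05, and other symbols give the same change under median scaling over all probes, median scaling over detected probes and no background correction. Nabp2 probe 1 is the lowest under every treatment, and most probes near 0 turn positive when arrays are scaled to the median of all probes.

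Within replication protein A, the brighter probe of the middle subunit was lower, while the probes of the large and small subunits did not pass the test. Rpa1, which carries most of the DNA binding surface of the trimer, had 1 probe (ILMN_2750801). It read 12.77, 12.71 and 12.72 in the knockout and 12.51, 12.68, 12.88 and 12.95 in controls. The knockout arrays fell in the middle of the control range, and the log2 change was -0.02 with a 95% interval from -0.33 to 0.29.

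Rpa2, the subunit phosphorylated by checkpoint kinases under replication stress, had 2 probes. Probe 1 (ILMN_2602687) read 8.57, 8.01 and 8.78 in the knockout, against 9.33, 9.34, 9.59 and 9.53 in controls. The 3 knockout arrays were below all 4 controls, with knockout 2 the lowest. The mean was 8.45 ± 0.399 (SD, n = 3) in the knockout and 9.45 ± 0.132 (SD, n = 4) in controls, a log2 change of -0.996 (SE 0.186, adjusted p = 0.00634 in limma), or 1.99-fold lower. The call held whichever array was left out (log2 change -1.16 to -0.77, adjusted p 0.0112 to 0.0220). It was lost under median scaling over all probes, where the change was -0.35 (adjusted p = 0.224), or -0.85 relative to the median of all tested probes. The call was also lost in the fit that held array brightness, which was itself apart between the groups (-1.02, adjusted p = 0.230). In raw signal the probe overlapped, at 424 to 688 on knockout arrays and 559 to 940 on control arrays, so its fall is one relative to the other probes of these brighter arrays.

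Rpa2 probe 2 (ILMN_2597840) did not pass the test. It read 8.32, 8.10 and 8.15 in the knockout and 8.30, 8.58, 8.37 and 8.35 in controls. Knockout 1 lay above control 1 and the others lay below all controls, and the log2 change was -0.21 with a 95% interval from -0.50 to 0.07 (adjusted p = 0.245 in limma). On the same array, probe 1 minus probe 2 was 0.25, -0.09 and 0.62 in the knockout and 1.03, 0.75, 1.22 and 1.18 in controls. The groups did not overlap in that difference (exact permutation p = 0.0286, adjusted 0.0686). Both probes are annotated to the same transcript accession, and the sources used here do not say which exons they cover.

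Rpa3, the smallest subunit, had 1 probe (ILMN_1239806). It read 11.54, 11.84 and 11.54 in the knockout and 12.23, 12.11, 12.09 and 11.69 in controls, with control 4 inside the knockout range. The log2 change was -0.39 with a 95% interval from -0.75 to -0.03 (adjusted p = 0.105 in limma). It passed the threshold without control 4 (adjusted p = 0.0361), without background correction (0.0438) and in the authors' processed values (0.0383), so it stood near the border. With arrays scaled to the median of all probes it changed by -0.01, or -0.51 relative to the median of all tested probes. Between subunits on the same array, Rpa2 probe 1 minus Rpa1 was -4.20, -4.70 and -3.94 in the knockout, against -3.18, -3.34, -3.29 and -3.42 in controls. That difference was apart in the groups (exact permutation p = 0.0286, adjusted 0.0686). Rpa2 probe 1 minus Rpa3 overlapped (exact permutation p = 0.143), as did Rpa1 minus Rpa3 (exact permutation p = 0.229).

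**Figure D3:**
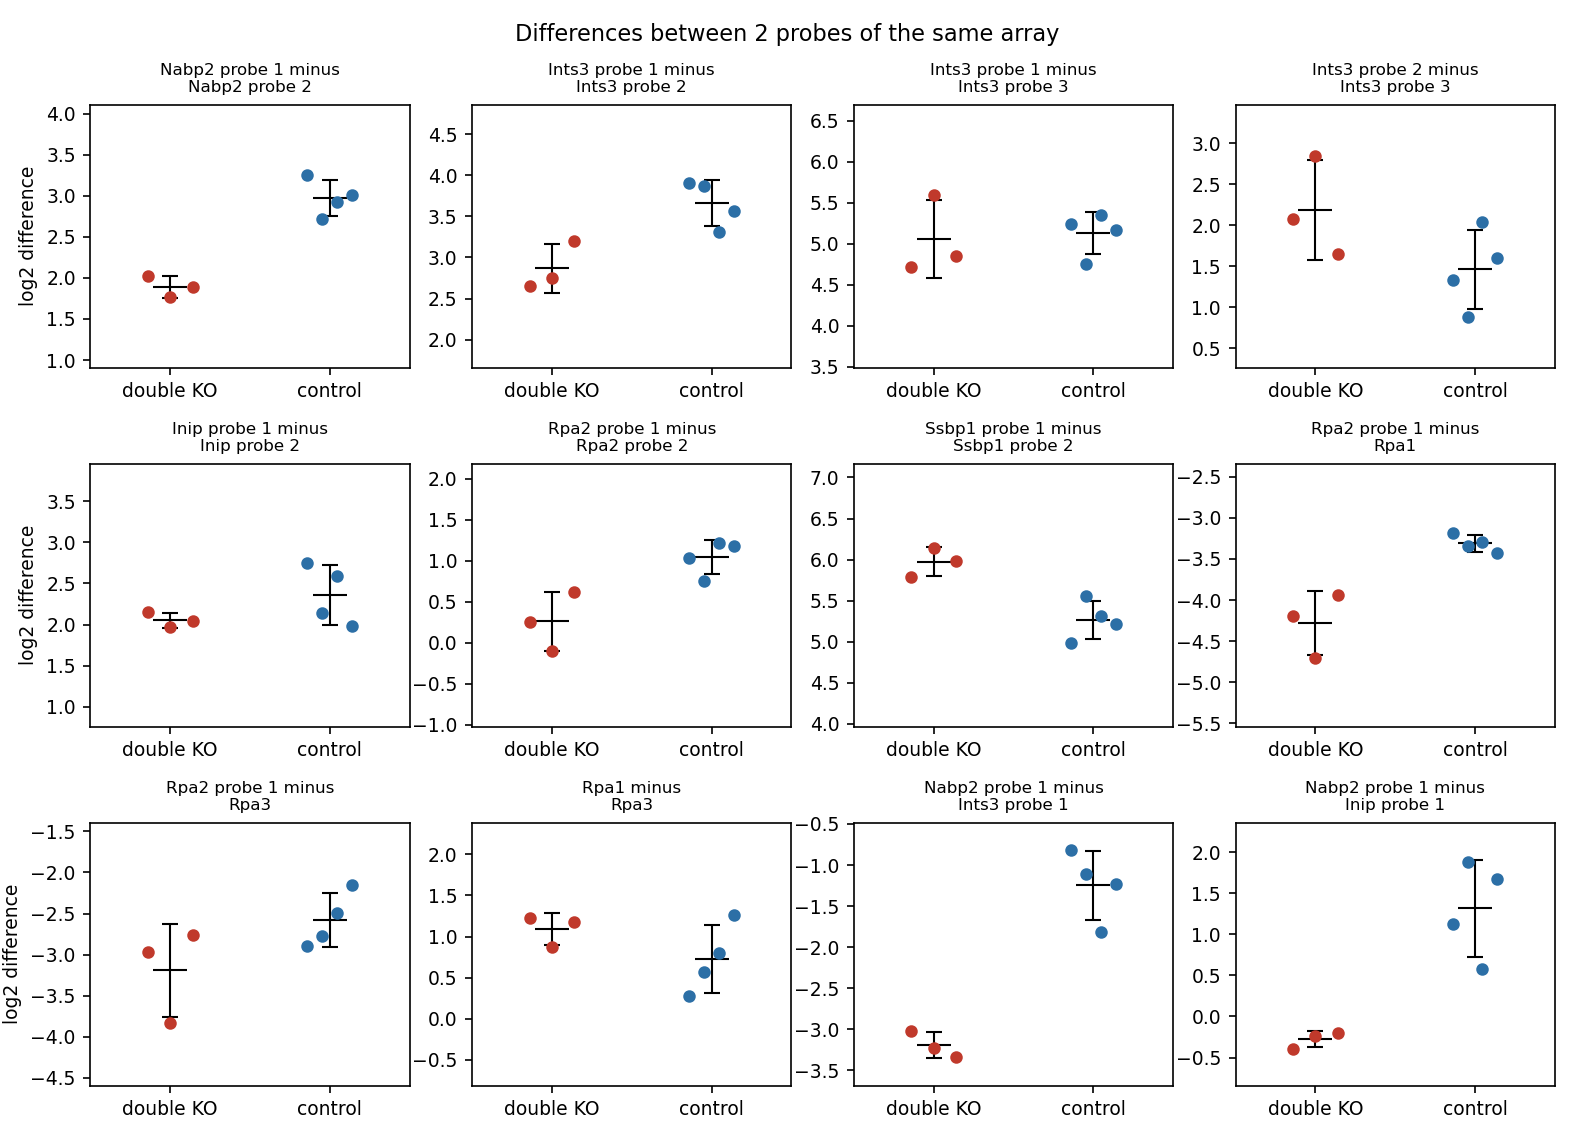
Log2 difference between 2 probes of the same array (vertical axis, a separate range per panel) for 12 pairs, on 3 double knockout arrays (red, left) and 4 control arrays (blue, right), with the mean and SD as bars. Rpa2 probe 1 is lower in the knockout relative to Rpa2 probe 2 and to Rpa1, while its difference from Rpa3 overlaps between groups.

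The promoters of the 3 subunit genes are shown because only 1 of the 3 genes gave a called probe. CCAAT boxes, which are bound by NF-Y, and sites of the E2F family, which controls genes of DNA synthesis, are common features of replication gene promoters. The 250 bases before the annotated start of each gene are from RefSeq on build GRCm38.p6, with capitals on every CCAAT and on the E2F-type letters, which were TTCCCGC with the variants TTGGCGC, then TTCGCGC, then TTGCCGC, each searched on both strands and chosen after the values were known. The windows are chr11:75348384-75348633 on the minus strand for Rpa1, chr4:132768110-132768359 on the plus strand for Rpa2 and chr6:8259142-8259391 on the minus strand for Rpa3.
Rpa1: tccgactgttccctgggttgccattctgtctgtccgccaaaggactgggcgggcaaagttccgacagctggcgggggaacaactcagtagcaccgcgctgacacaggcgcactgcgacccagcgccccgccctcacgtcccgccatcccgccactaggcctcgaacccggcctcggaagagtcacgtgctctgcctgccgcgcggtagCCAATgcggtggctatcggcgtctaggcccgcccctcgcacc
Rpa2: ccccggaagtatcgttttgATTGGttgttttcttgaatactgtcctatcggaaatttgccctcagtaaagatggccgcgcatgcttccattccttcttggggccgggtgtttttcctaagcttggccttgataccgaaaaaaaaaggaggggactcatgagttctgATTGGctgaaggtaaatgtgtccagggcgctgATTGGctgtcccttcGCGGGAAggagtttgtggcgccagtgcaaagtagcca
Rpa3: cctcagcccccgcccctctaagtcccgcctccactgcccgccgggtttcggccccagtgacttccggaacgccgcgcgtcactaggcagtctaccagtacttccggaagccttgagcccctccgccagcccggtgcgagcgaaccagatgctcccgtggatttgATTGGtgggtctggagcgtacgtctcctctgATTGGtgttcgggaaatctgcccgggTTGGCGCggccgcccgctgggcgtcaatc
Rpa2 held 3 CCAAT matches, all on the minus strand relative to the gene, and 1 E2F-type match, and Rpa3 held 2 CCAAT matches and 1 E2F-type match. Rpa1 held 1 CCAAT match and 0 of the E2F type. Of 32851 promoter windows of the same length, 33.8% held at least 1 CCAAT, 10.1% at least 2 and 2.79% at least 3, and 7.89% held at least 1 of the E2F-type letters. Both kinds were present in 2.79% of windows. None of these matches overlap each other. Among the other members, Ints3 held 1 CCAAT and 1 E2F-type match, Inip 2 CCAAT, Nabp1 1 CCAAT and Ssbp1 0 of either. Of the Nabp2 windows, 1 held 3 CCAAT and 1 E2F-type match and the others 0. Neither Ints3 nor Inip was called on its brightest probe. The matches describe the letters of these windows, no binding was measured, and a tie to the calls was not tested.

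Ssbp1 was measured by a bright and a dim probe, and only the dim one was called. Probe 1 (ILMN_3096012) read 11.25, 11.41 and 11.11 in the knockout and 11.44, 11.43, 11.22 and 10.999 in controls. The groups overlapped, and the log2 change was -0.02 with a 95% interval from -0.36 to 0.32. In raw signal they did not overlap, at 2741 to 3331 on knockout arrays and 1712 to 2492 on control arrays. Probe 2 (ILMN_3023573) read 5.46, 5.26 and 5.13 in the knockout, against 6.46, 5.87, 5.90 and 5.79 in controls. The knockout arrays were below all controls, of which control 1 was the highest, and the log2 change was -0.73 (SE 0.180, adjusted p = 0.0186 in limma).

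The call of Ssbp1 probe 2 was lost without knockout 2 or knockout 3 (adjusted p = 0.0515 and 0.0755), and also without background correction, where the change was -0.23 (adjusted p = 0.0670), in the authors' processed values (0.0590) and under median scaling over all probes (0.182). Like Nabp2 probe 2, it lay close to the detection limit of the knockout arrays, and its raw signals overlapped at 153 to 171 on knockout arrays and 147 to 178 on control arrays. Probe 1 exceeded probe 2 by 5.97 ± 0.177 (SD, n = 3) in the knockout and 5.27 ± 0.237 (SD, n = 4) in controls (exact permutation p = 0.0286, adjusted 0.0686). On each knockout array this gap was wider than on any control array, but the difference between the groups was 0.71 with background correction and 0.21 without it, where the adjusted permutation p was 0.171.

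The genes that work beside these proteins were counted from 5 lists, each gene by its brightest tested probe and with p-values adjusted over all probes. Of 7547 genes counted in this way, 26.0% differed, 13.8% higher and 12.1% lower, and their median log2 change was 0.0114. Of 9 tested Integrator subunits, the complex that shares Ints3, 2 were higher and 0 lower, with a median of 0.22. Ints5 rose by 0.58 (SE 0.170, adjusted p = 0.0347 in limma) and Ints14 by 0.44 (SE 0.124, adjusted p = 0.0288), and a second Ints14 probe rose by 0.51 (adjusted p = 0.0163). Without knockout 3 or control 3 the number called higher was 0, and without any other single array it was 1. The Integrator share was thus close to that of all genes.

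Of 21 tested genes that bind or act with replication protein A or process DNA ends, 1 was higher and 1 lower, with a median log2 change of 0.16. The gene that fell was Rpain, which in human and frog cells carries replication protein A into the nucleus. It read 10.31, 10.17 and 10.40 in the knockout, against 11.39, 11.08, 11.31 and 10.97 in controls, so all knockout arrays were below all controls. Its log2 change was -0.89 (SE 0.142, adjusted p = 0.00348 in limma), and a second Rpain probe changed by -0.68 (adjusted p = 0.0448). Prpf19, a ubiquitin ligase of the spliceosome that also binds replication protein A, rose by 0.48 (SE 0.141, adjusted p = 0.0353), with its other probes at 0.51 (adjusted p = 0.0268) and 0.33 (adjusted p = 0.196). The call of the brightest Prpf19 probe was lost in 6 of the 7 omissions of 1 array, all but that of control 4, and under median scaling over detected probes (0.12), while that of Rpain held in all 7. Atrip and Etaa1, which bring ATR and its activation to coated strands, had log2 changes of -0.07 and -0.03, with 95% intervals from -0.36 to 0.22 and from -0.31 to 0.26. Rad52 was at 0.40 (adjusted p = 0.0879). These 3 were picked after their values were seen.

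Of 16 tested genes that maintain mitochondrial DNA with Ssbp1, 3 were higher and 1 lower, with a median log2 change of 0.17. Polg, the catalytic subunit of the mitochondrial DNA polymerase, rose by 0.74 (SE 0.200, adjusted p = 0.0260 in limma), the DNA ligase Lig3 by 0.62 (SE 0.157, adjusted p = 0.0194) and the topoisomerase Top3a by 0.49 (SE 0.121, adjusted p = 0.0183). Dguok, the mitochondrial deoxyguanosine kinase, was at -0.52 (SE 0.145, adjusted p = 0.0288). The number called higher was 0 without knockout 1 or without knockout 3 and 5 without control 1. The number called lower was 0 without knockout 1, knockout 2 or control 1, and Dguok itself was also lost without control 3. Of 3 tested genes of telomere end binding, which use the same kind of fold, 0 were called in limma and 0 had an unadjusted p under 0.05 on the brightest probe, with Acd at -0.23 (adjusted p = 0.186) and Ctc1 at -0.11 (adjusted p = 0.537). A second Ctc1 probe was at 0.30, with an unadjusted p under 0.05 (adjusted p = 0.0938 in limma).

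Of 17 tested genes of DNA replication and the cell cycle, 4 were lower and 1 higher, with a median log2 change of -0.0769. The genes that fell were the mitotic kinase Cdk1 at -0.94 (SE 0.207, adjusted p = 0.0121 in limma), the thymidine kinase Tk1 at -0.83 (SE 0.136, adjusted p = 0.00392), the thymidylate synthase Tyms at -0.69 (SE 0.157, adjusted p = 0.0133) and the ribonucleotide reductase subunit Rrm2 at -0.49 (SE 0.128, adjusted p = 0.0226). A second Tk1 probe was at -1.02 (adjusted p = 0.00237), a second Rrm2 probe at -0.43 (adjusted p = 0.0817), and the other Tyms probes at -0.75 (adjusted p = 0.0110) and 0.18 (adjusted p = 0.525). The call of Rrm2 was lost without knockout 1 or knockout 3. The gene that rose, named after its value was seen, was the helicase subunit Mcm2 at 0.42 (adjusted p = 0.0409), a call lost in 6 of the 7 omissions, all but that of knockout 1, and under median scaling over detected probes (0.18). These lie beside the fall of Rpa2 probe 1, and any link between them was not tested. Counts in 4 of the lists follow the scaling: under median scaling over all probes 7 Integrator genes, 15 partners of replication protein A, 11 mitochondrial genes and 8 replication genes were higher and 0 lower. Of all 10723 tested probes, 4985 were higher and 158 lower under that scaling, so these counts are to be read against a shift of the whole array.

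**Figure D4:**
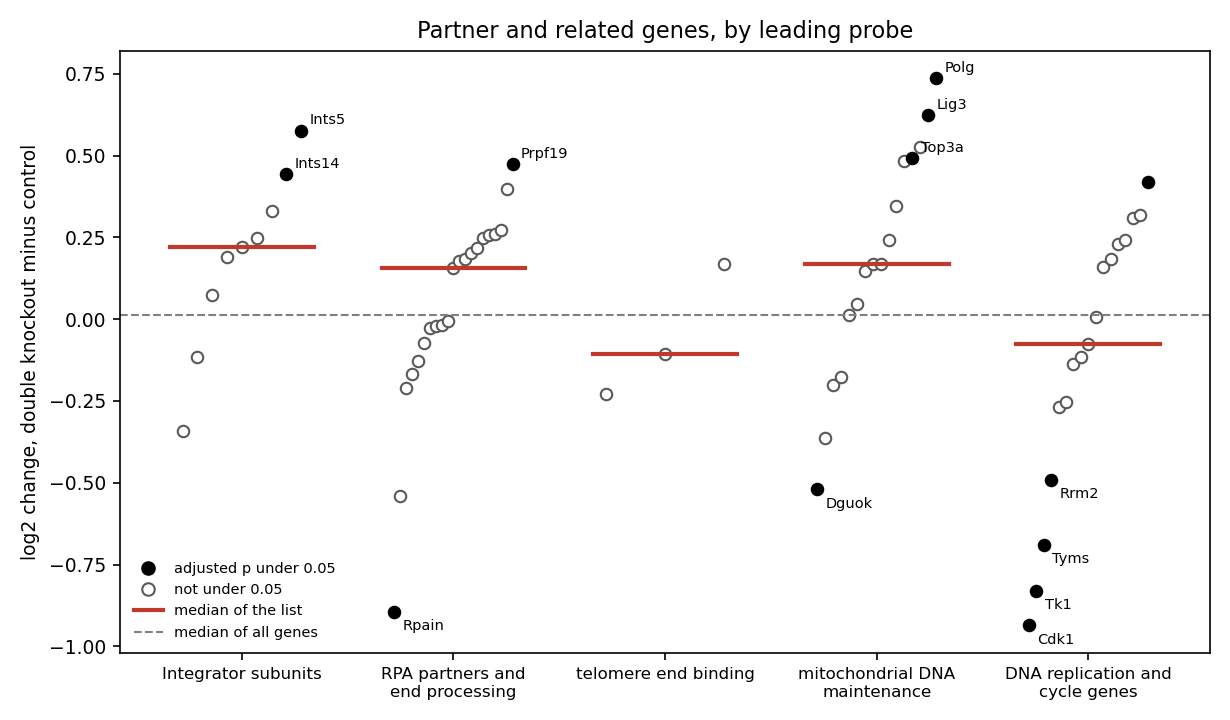
Log2 change (vertical axis, double knockout minus control) of each tested gene of 5 lists, by its brightest probe. Filled points passed an adjusted p of 0.05, red lines are list medians and the dashed line is the median of all genes at 0.0114. Rpain at -0.89 stands below the other partners of replication protein A, and Cdk1, Tk1, Tyms and Rrm2 are the lowest replication and cycle genes.

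Among tested probes of other genes, those nearest in course over the 7 arrays to Nabp2 probe 1 and to Rpa2 probe 1 were sought. Probes with no gene symbol or with a clone name were left out. Nearness was the root mean square difference of log2 values, each centred on its control mean. For Nabp2 the nearest were Il31ra, a cytokine receptor subunit, at 0.19, the RAD52 motif protein Rdm1 at 0.29 and the cell cycle regulator Rgcc at 0.34. Il31ra read 6.34, 5.95 and 6.13 in the knockout and 8.57, 8.42, 7.74 and 8.10 in controls, with control 3 the lowest control as for Nabp2. The lowest controls were control 2 and control 4 for Rdm1 (both 9.12) and control 4 for Rgcc (10.67). For Rpa2 they were Nubp2, a factor of iron-sulfur cluster assembly, and E2f2, a transcription factor of the E2F family, both at 0.11, and the mitotic protein Cdca8, also at 0.11. E2f2 read 8.43, 7.98 and 8.54 in the knockout and 9.21, 9.40, 9.60 and 9.33 in controls, and knockout 2 was the lowest array for E2f2 as for Rpa2. All arrays enter this measure, so likeness includes the group difference itself.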

How the data were processed

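The authors deposited raw probe signals (linear intensity, neither background-corrected nor normalized), and beside each a detection p-value against the negative controls of its array, per the file headers. The authors also deposited processed values on a log2 scale. Set against the signals they followed quantile-normalized log2 signals (median correlation per probe 0.999966), and their centring baseline is unknown. GenomeStudio was used, per the submitters' processing notes, and the sources used here give no version.

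Signals were corrected with neqc in limma 3.58.1 (R 4.3.3), with an offset of 16 and quantile normalization over 7 arrays. Of 25697 probes, 23978 carried a gene symbol, and 10723 detected on at least 3 arrays were tested with lmFit and eBayes, two-sided, with Benjamini-Hochberg adjustment. All adjusted p-values of probes are from this limma fit. Differences between probes of an array were tested by exact two-sided permutation over the 35 splits. The fit was tested on simulated data. The number of arrays limits the precision.

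The members, lists and tests were chosen with earlier results of these data known. Named by rule were all members, and up to 4 called genes of each list by size of change, or the 2 with the smallest p where none was called. The rule also named the 3 probes nearest to Nabp2 and to Rpa2, among other genes with a symbol that is not a clone name. Other genes, such as Mcm2 and the cell type markers, were named after their values were seen. The alternatives were no background correction, median scaling over all or over detected probes, the processed values, other filters, the replicate number as a block, array brightness as a covariate, a variance trend, 1 probe per gene and leaving out each array. Same-numbered arrays did not vary together (correlations of -0.143, -0.00861 and -0.00789). These values give no sign of pairing, but they cannot show whether same-numbered samples were handled together.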

Additional observations from a re-analysis of the deposited data

How the results depend on the processing

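Of 10723 probes and 13 member probes tested, 2820 and 5 were called in the main fit. Median scaling over all probes called 5143 and 3, and median scaling over detected probes 3500 and 8. At detection p under 0.01 on all arrays, 2649 of 7595 probes and 3 of 9 members were called. With 1 probe per gene, 2051 of 7547 probes and 2 of 7 members were called. Array brightness as a covariate left 63 probes and 1 member called. With the replicate block, 1685 probes and 4 members were called. Leaving out 1 array gave 1477 to 2624 probes and 3 to 6 members. Higher probes were 51.4% of calls, against 96.9% under median scaling over all probes and 28.5% over detected probes, which moved the median change to 0.50 and -0.17. Under scaling over all probes the sign turned for Ints3 probe 1 (0.49) and probe 3 (0.19), Inip probe 1 (0.22) and probe 2 (0.0976), Rpa1 (0.32), Rpa2 probe 2 (0.48) and Ssbp1 probe 1 (0.42), and for the differences Ints3 probe 1 minus probe 3 (0.31) and Inip probe 1 minus probe 2 (0.12). Other turns of sign were within 0.25 of 0: Ints3 probe 3 (0.0473) and Rpa1 (0.0430) with the replicate block, Ssbp1 probe 1 with brightness as a covariate (0.19), and, over the arrays left out, Ints3 probe 3 (-0.17 to 0.24), Rpa1 (-0.10 to 0.0430), Ssbp1 probe 1 (-0.11 to 0.0547) and Ints3 probe 1 minus probe 3 (-0.34 to 0.10). The cause was not tested. Under scaling over detected probes, Inip probe 2 (-0.57, adjusted p = 0.0138 in limma) and Rpa1 (-0.35, adjusted p = 0.0491) were called. The dimmest probes of Nabp2, Ssbp1, Ints3 and Inip lay close to background, which limits what their changes can show.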
